A study of Mus musculus with 24 samples.

Results

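The molecular motors that walk along microtubules were examined in sorted cells from mouse embryonic stem cell cultures. They were taken as every entry of the expression table whose symbol named a numbered kinesin (Kif or Kifc), a kinesin light chain (Klc1 to Klc4), a cytoplasmic dynein subunit (Dync1 or Dync2) or one of the dynactin subunits Dctn1 to Dctn6. The rule found 56 genes among 22889 entries. They were grouped by known role into 12 mitotic kinesins, 17 kinesins of axonal and vesicle transport, 10 other kinesins, 4 kinesin light chains, 5 subunits of dynein-1, 2 subunits of dynein-2 and 6 dynactin subunits. Expression was measured as RPKM, a read count scaled to the length of the transcript and to the depth of the library, so that levels can be compared between genes.

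Kinesins mostly carry cargo towards the plus end of microtubules, which in an axon points to the synapse, whereas dynein-1 together with dynactin carries cargo back to the cell body. A conventional kinesin is built from Kif5 heavy chains and light chains of the Klc family that help to bind cargo. Other kinesins work in cell division, where they build the spindle, move chromosomes or help to cut the daughter cells apart, and postmitotic neurons no longer divide.

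Oculomotor neuron (OMN) cultures came from an Islet1-GFP line that also carried NesEPhox2a, a Phox2a transgene under the nestin enhancer, which is active in neural progenitors, and they were patterned for 5 days with FGF8 at 100 ng/ml together with 250 nM of SAG, a Smoothened agonist. Spinal motor neuron (SC) cultures came from an Hb9-GFP line and received retinoic acid at 100 nM and SAG at 500 nM over the same 5 days. Each culture was sorted by fluorescence into a GFP-positive and a GFP-negative fraction, giving 4 groups of 6 samples. The stem cell line, the reporter, the transgene and the factors all changed together between the cultures and cannot be told apart, and in bulk samples fewer cells of a type and less RNA per cell cannot be told apart either.

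The sort was checked against marker genes. The summed level of 12 markers of postmitotic neurons was 1788 to 4140 RPKM in OMN GFP-positive samples against 34.8 to 79.3 in OMN GFP-negative samples, and 112 to 3412 against 117 to 796 in the SC fractions. All 12 neuronal markers had positive changes from the GFP-negative to the GFP-positive fraction in both cultures. In OMN cultures 11 were called higher (limma, Benjamini-Hochberg adjusted p under 0.05), where 3.81% of all genes were. In SC cultures 7 were called higher, where 0.397% of all genes were. Replicate 4 of the SC cultures went against its labels: Isl1 was 7.63 RPKM in its GFP-positive sample against 50.4 to 123 in the other 5, Mnx1, the gene of the Hb9 reporter, was 43.1 in its GFP-positive and 69.4 in its GFP-negative sample (0.189 to 4.72 in the other 5), and the fractions correlated at 0.956 across 11952 genes, against 0.785 to 0.902 in the other 11 pairs. Results are therefore given with and without both samples of that replicate. In SC GFP-negative replicate 2 the 3 most abundant genes held 68.8% of the summed RPKM. The estimated depth was 752529 to 4642207 reads in replicates 1 to 4 and 4822576 to 7675428 reads in replicates 5 and 6, and 46 to 56 of the 56 motor genes were above 0 RPKM per sample.

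The promoters of 6 genes that the results turn on are shown first, 4 of mitotic and 2 of transport genes. RefSeq start-site windows (GRCm38.p6, 250 bases before to 50 after the start, sense strand) were matched for 43 of the 56 genes. The letters TTTGAA, which read as TTCAAA from the opposite strand, are known as the core of the cell cycle genes homology region, and TTCGAA is a variant of it. The letters CCAAT form the CCAAT box, which reads as ATTGG from the opposite strand. Each was searched on both strands. Matches are in capitals in the windows of Kif11 (chr19:37376132-37376431, plus strand), Kif15 (chr9:122950831-122951130, plus), Kif23 (chr9:61946750-61947049, minus) and Kif2c (chr4:117178723-117179022, minus), which are mitotic kinesins, and of Kif5c (chr2:49619036-49619335, plus) and Klc1 (chr12:111758618-111758917, plus), which serve transport.
Kif11: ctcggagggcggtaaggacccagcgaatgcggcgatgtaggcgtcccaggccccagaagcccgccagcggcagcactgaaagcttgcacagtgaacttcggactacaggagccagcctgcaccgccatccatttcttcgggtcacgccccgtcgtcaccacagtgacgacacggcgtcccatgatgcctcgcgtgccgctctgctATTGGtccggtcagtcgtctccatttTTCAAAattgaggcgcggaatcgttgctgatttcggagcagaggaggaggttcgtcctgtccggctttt
Kif15: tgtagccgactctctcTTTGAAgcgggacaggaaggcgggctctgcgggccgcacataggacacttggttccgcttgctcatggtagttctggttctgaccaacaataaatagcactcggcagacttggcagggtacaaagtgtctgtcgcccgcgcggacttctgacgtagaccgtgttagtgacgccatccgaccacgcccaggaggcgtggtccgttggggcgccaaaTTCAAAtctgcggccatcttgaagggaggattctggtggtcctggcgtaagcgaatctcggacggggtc
Kif23: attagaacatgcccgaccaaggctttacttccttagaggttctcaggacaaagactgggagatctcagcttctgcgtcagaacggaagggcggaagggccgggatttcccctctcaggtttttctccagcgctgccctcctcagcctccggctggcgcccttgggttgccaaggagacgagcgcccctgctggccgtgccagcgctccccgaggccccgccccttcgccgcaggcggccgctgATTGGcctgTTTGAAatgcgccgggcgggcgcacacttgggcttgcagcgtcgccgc
Kif2c: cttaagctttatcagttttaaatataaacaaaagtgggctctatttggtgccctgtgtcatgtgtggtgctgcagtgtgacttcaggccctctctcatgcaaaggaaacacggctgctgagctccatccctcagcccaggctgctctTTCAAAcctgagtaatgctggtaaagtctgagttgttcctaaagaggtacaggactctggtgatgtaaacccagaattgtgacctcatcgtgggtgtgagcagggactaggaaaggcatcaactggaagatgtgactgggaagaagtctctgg
Kif5c: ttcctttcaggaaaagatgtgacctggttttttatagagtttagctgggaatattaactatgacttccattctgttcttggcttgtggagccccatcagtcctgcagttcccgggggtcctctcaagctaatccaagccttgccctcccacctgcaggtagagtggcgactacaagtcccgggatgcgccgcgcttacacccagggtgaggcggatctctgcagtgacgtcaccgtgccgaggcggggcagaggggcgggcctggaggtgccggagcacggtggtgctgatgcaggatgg
Klc1: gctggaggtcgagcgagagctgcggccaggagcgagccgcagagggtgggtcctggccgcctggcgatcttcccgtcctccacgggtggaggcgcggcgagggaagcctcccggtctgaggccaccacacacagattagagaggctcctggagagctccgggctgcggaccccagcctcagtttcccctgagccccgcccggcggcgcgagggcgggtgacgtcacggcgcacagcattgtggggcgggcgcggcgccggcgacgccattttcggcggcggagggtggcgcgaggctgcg
In the Kif11 window TTCAAA began at position -19 from the start and ATTGG at -45. The Kif15 window also held TTCAAA at -19, with TTTGAA at -234. In the Kif23 window the pair lay at the start itself, with ATTGG at -7 and TTTGAA at 3. Kif2c held 1 match, TTCAAA at -103, and Kif5c and Klc1 held none. The Kif2c window belongs to a start inside the gene, which spans chr4:117159639-117182639 on the minus strand, and not to its outermost start.

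TTTGAA or TTCGAA was found in 10 of 11 promoters of mitotic kinesins (90.9%), in 1 of 13 promoters of transport kinesins (7.69%) and in 19.2% of all 32851 promoters. Kif18a was the mitotic kinesin without it. CCAAT was found in 7 of 11 mitotic promoters, in 4 of 13 transport promoters and in 37.4% of all promoters. Both together were found in 7 of 11 mitotic promoters, in 0 of 13 transport promoters and in 7.52% of all promoters. The 13 transport promoters came from 11 genes, as Kif1a and Kif1b had more than 1 window each, and Kif5a had none. Overlapping windows of Kif1b were counted separately among the CCAAT matches. None of the 5 dynein-1 promoters, which came from 4 genes without Dync1li2, held either sequence. A match describes letters in the window and says nothing of binding.

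The comparison of the GFP-positive with the GFP-negative fraction asked which motors distinguish the sorted motor neurons from the rest of their culture. In OMN cultures the neuronal Kif5 heavy chains, 1 light chain, 2 Kif1 genes, Kif3c, the dynein intermediate chain Dync1i2 and the largest dynactin subunit were higher in the GFP-positive fraction, and 1 mitotic kinesin was lower. Of 56 motor genes 9 were called, where 6.15% of all genes were. Of these, 8 were higher, where 3.81% of all 22179 genes tested were higher, and 1 was lower, where 2.34% of all genes were lower (limma, Benjamini-Hochberg adjusted p under 0.05 over all genes). The same-numbered fractions of a culture deviated together, and with the replicate as a block within each culture 26 motor genes were called, 16 higher and 10 lower, where 16.4% of all genes were called in either direction (8.22% higher and 8.21% lower). Without both samples of SC replicate 4, which share the estimate of the spread, 12 were called in OMN cultures, where 8.36% of all genes were. Changes are differences of log2(RPKM + 1) and so understate the change of genes near 0.

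**Figure D1:**
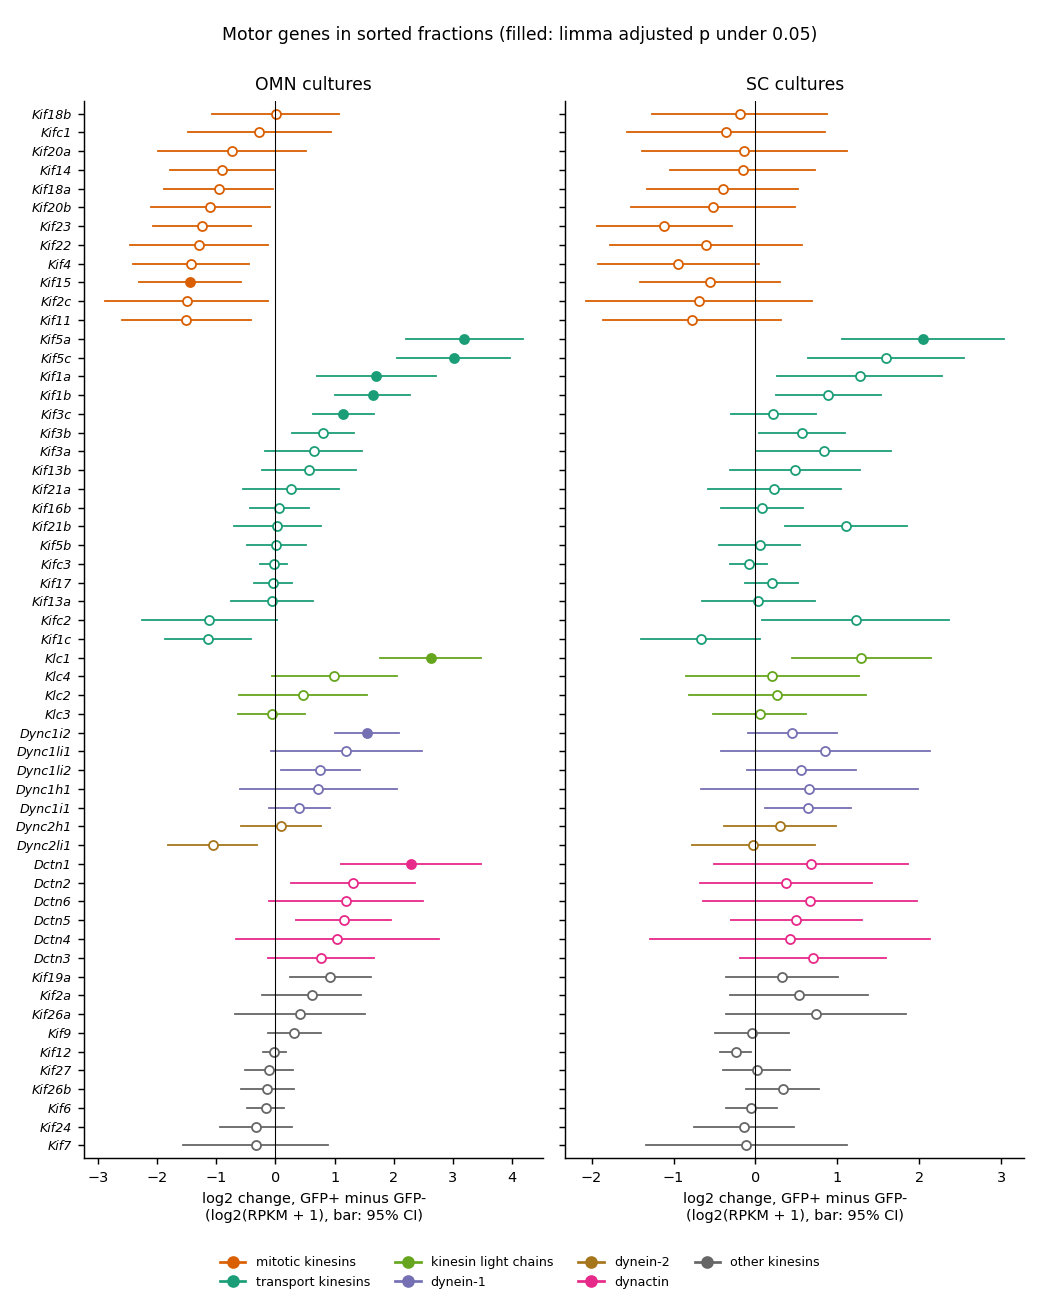
Change of each of the 56 motor genes from the GFP-negative to the GFP-positive fraction, as the difference of log2(RPKM + 1) with its 95% confidence interval (horizontal axis), in OMN and SC cultures (n = 6 per group), ordered by class. Filled points are called by limma: 9 genes in OMN cultures, led by Kif5a at 3.19, and Kif5a alone in SC cultures at 2.04.

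Kif5a (chr10:127225696-127263348, GRCm38), a neuronal kinesin heavy chain that carries neurofilaments and other cargo along axons, showed the largest step. Its level in OMN GFP-positive samples was 7.21, 11.9 and 20.5 RPKM (lowest, median and highest), against 0.148, 0.527 and 0.789 in OMN GFP-negative samples. In SC cultures it was 0.403, 8.42 and 26.1 RPKM in GFP-positive and 0.169, 1.08 and 2.82 in GFP-negative samples. The OMN fractions did not overlap, and in SC cultures only GFP-positive replicate 4, at 0.403 RPKM, fell into the range of the GFP-negative samples. Kif5a rose by 3.19 ± 0.48 (SE) on the log2 scale in OMN cultures (limma adjusted p = 0.00013) and by 2.04 ± 0.48 in SC cultures (limma adjusted p = 0.0292).

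Kif5c, the other neuron-enriched heavy chain, was 26.5, 54.9 and 63.1 RPKM in OMN GFP-positive samples and 2.56, 6.24 and 6.45 in OMN GFP-negative samples. The groups did not overlap, and the difference was 3.01 ± 0.46 on the log2 scale (limma adjusted p = 0.000166). In SC cultures Kif5c was 4.3, 38.8 and 89.2 RPKM in GFP-positive and 5.63, 11.6 and 15.4 in GFP-negative samples. The lowest GFP-positive sample was again replicate 4, and the other 5, at 27.6 RPKM or more, lay above all GFP-negative samples. The difference of 1.59 ± 0.46 did not pass the test on all samples (limma adjusted p = 0.0994), passed it with the replicate block (limma adjusted p = 0.0173) and was 1.98 ± 0.32 without replicate 4 (limma adjusted p = 0.000534).

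Kif5b, the heavy chain found in most cell types, had a mean of 23 ± 5.65 RPKM (SD, n = 6) in OMN GFP-positive and 22.8 ± 5.32 in OMN GFP-negative samples. In SC cultures it was 31.7 ± 6.76 and 31.4 ± 10.7 RPKM (SD, n = 6 each). The difference between fractions was 0.01 in OMN cultures (95% interval -0.48 to 0.51) and 0.05 in SC cultures (-0.44 to 0.55) on the log2 scale. Among the Kif5 genes, Kif5b thus made up 79.3% ± 4.57 of the summed RPKM in OMN GFP-negative samples and 27.2% ± 7.60 in OMN GFP-positive samples (SD, n = 6 each), while Kif5c made up 19% ± 5.19 and 57.7% ± 7.17. In SC cultures the share of Kif5b was 72% ± 6.78 in GFP-negative and 43.8% ± 24.4 in GFP-positive samples, the latter with 86.4% in replicate 4.

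**Figure D2:**
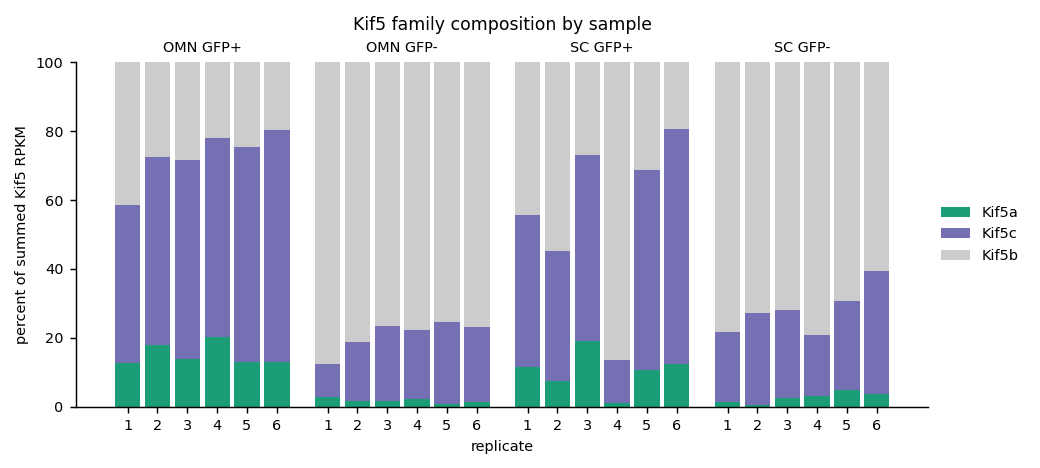
Share of each Kif5 heavy chain in the summed RPKM of Kif5a, Kif5b and Kif5c (vertical axis, percent) in each of the 24 samples, by group and replicate number. Kif5b fills most of every GFP-negative bar, and at 86.4% also that of SC GFP-positive replicate 4.

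Klc1, the light chain that links Kif5 to much of its cargo, had the highest mean level of the kinesin subunits in both GFP-positive groups. It was 114, 153 and 294 RPKM in OMN GFP-positive samples and 20.6, 22.8 and 46.3 in OMN GFP-negative samples. The groups did not overlap, and Klc1 rose by 2.62 ± 0.41 on the log2 scale (limma adjusted p = 0.000225). In SC cultures it was 16.3, 60.4 and 180 RPKM in GFP-positive and 10.7, 24 and 45.7 in GFP-negative samples. These overlapped, with a difference of 1.29 ± 0.41 (limma adjusted p = 0.155) that passed the test with the replicate block (limma adjusted p = 0.0179). Klc1 held 91.7% ± 3.65 of the summed light chain RPKM in OMN GFP-positive and 79.7% ± 6.08 in OMN GFP-negative samples (SD, n = 6 each). Klc4 had means of 12.5 ± 5.53 and 5.69 ± 2.81 RPKM in those groups, and Klc2 and Klc3 stayed at group means of 2.42 RPKM or less. Klc2, Klc3 and Klc4 were called in neither culture.

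The Kif1 genes encode motors of synaptic vesicle precursors and mitochondria, with Kif1a best known for vesicle transport in axons. Kif1a was 7.85, 14.6 and 28.2 RPKM in OMN GFP-positive and 1.91, 3.58 and 7.23 in OMN GFP-negative samples. Kif1b was 12.3, 17.2 and 19.2 RPKM and 3.49, 4.42 and 6.72 in the same groups. Neither gene overlapped between the OMN fractions. Kif1a rose by 1.70 ± 0.49 on the log2 scale (limma adjusted p = 0.0366) and Kif1b by 1.64 ± 0.31 (limma adjusted p = 0.00156). The call of Kif1a was lost when any of 9 single OMN samples was left out (GFP-positive 2 to 5, or GFP-negative 1, 2, 3, 5 or 6), with changes of 1.51 to 1.78 in those fits.

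Kif1c, the broadly expressed member of that family, ran the other way. It was 0.318, 0.928 and 2.85 RPKM in OMN GFP-positive and 1.8, 3.22 and 7.44 in OMN GFP-negative samples, lower in the GFP-positive sample of 6 of 6 pairs. The difference of -1.14 ± 0.35 missed the threshold on all samples (limma adjusted p = 0.0574) and passed it with the replicate block (limma adjusted p = 0.0067). The share of Kif1c in the summed Kif1 RPKM was 3.83% ± 3.05 in OMN GFP-positive and 30.1% ± 7.56 in OMN GFP-negative samples (SD, n = 6 each).

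In SC cultures Kif1a was 0.576, 7.95 and 18.1 RPKM in GFP-positive and 0.949, 2.03 and 4.12 in GFP-negative samples. Kif1b was 5.19, 20.3 and 26.3 RPKM and 5.36, 7.92 and 17.8. The lowest GFP-positive value of both genes was that of replicate 4, below every GFP-negative sample. The differences of 1.27 ± 0.49 for Kif1a (limma adjusted p = 0.299) and 0.89 ± 0.31 for Kif1b (limma adjusted p = 0.218) did not pass the test. Without replicate 4 they were 1.75 ± 0.45 for Kif1a (limma adjusted p = 0.0336) and 1.08 ± 0.25 for Kif1b (limma adjusted p = 0.0167). Leaving out SC GFP-negative replicate 2 as well kept the call of Kif1b and lost that of Kif1a.

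**Figure D3:**
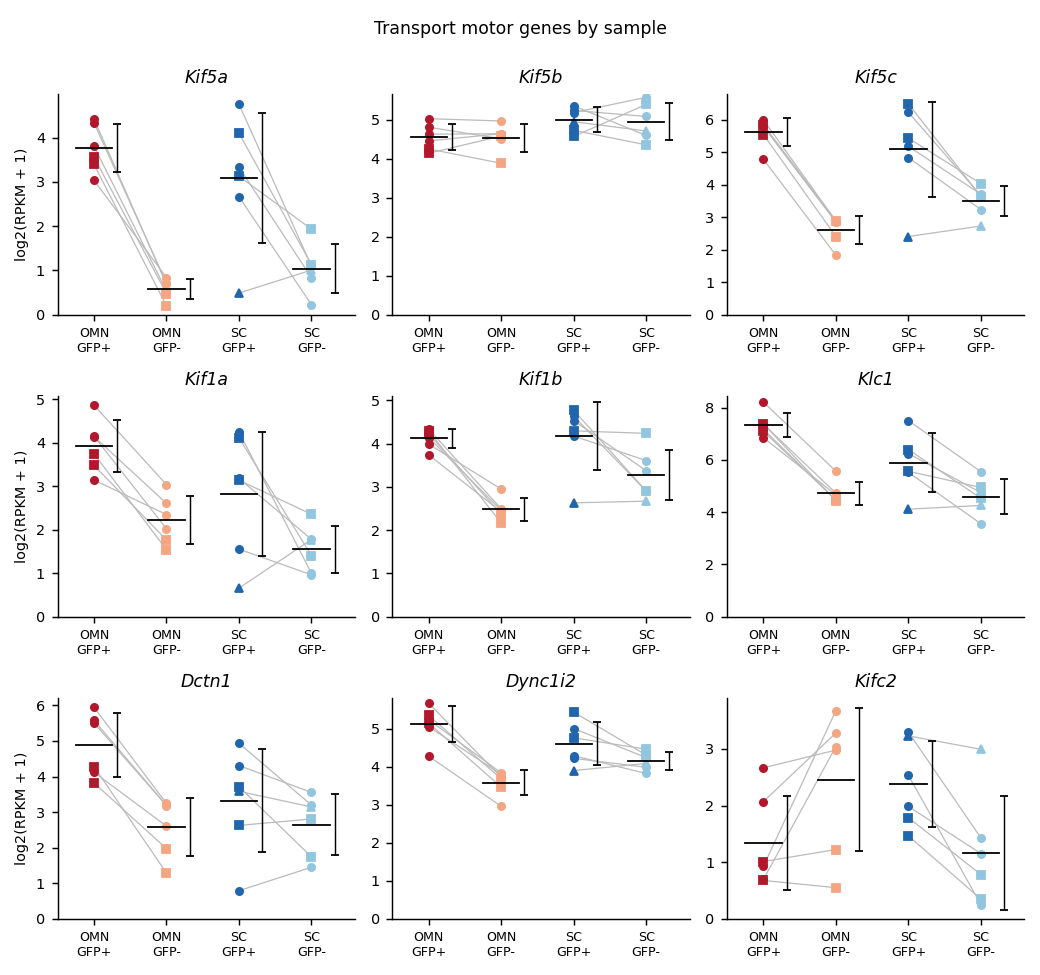
Level of 9 transport motor genes in each sample as log2(RPKM + 1) (vertical axis) in the 4 groups. Lines join the fractions of 1 replicate, squares are replicates 5 and 6, triangles are replicate 4 of the SC cultures, and the bar and whisker show the mean and SD (n = 6). Kif5a, Kif5c, Kif1a, Kif1b, Klc1, Dctn1 and Dync1i2 do not overlap between the OMN fractions, Kif5b stays level, and Kifc2 points in opposite directions in the OMN and SC cultures.

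Kif3a and Kif3b form the motor of kinesin-2, which serves cilia and axons, and Kif3c is a neuronal partner subunit. Kif3c was 0.475, 1.71 and 4.16 RPKM in OMN GFP-positive and 0.0943, 0.193 and 0.512 in OMN GFP-negative samples. The groups overlapped only by the lowest GFP-positive and the highest GFP-negative sample, and Kif3c rose by 1.15 ± 0.25 (limma adjusted p = 0.00592). Of the exonic bases of Kif3c, 40.7% lie under exons of other genes on the opposite strand, and the library does not tell strands apart, so its level is uncertain. Kif3b was 5.47 ± 1.17 against 2.69 ± 0.591 RPKM (SD, n = 6 each) without overlap. It was not called on all samples without the block (limma adjusted p = 0.0595) and was called with it (limma adjusted p = 0.047). The call with the block was lost without both samples of SC replicate 4. Kif3a was 13.5 ± 7.3 against 8.07 ± 3.43 RPKM and was not called in either fit.

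Of the 17 transport kinesins, 5 were called in OMN cultures and 12 were not. Their median change was 0.26 in OMN and 0.48 in SC cultures on the log2 scale, where the median over all genes was 0 in both. Kif21a, a motor that limits microtubule growth, was 9.08 to 29.7 RPKM in OMN GFP-positive and 9.26 to 22.1 in OMN GFP-negative samples, with a difference of 0.26 ± 0.39. Kif21b was 1.4 ± 1.17 against 1.23 ± 0.621 RPKM in the OMN fractions and 3.7 ± 2.31 against 1.04 ± 0.617 in the SC fractions (SD, n = 6 each), and its difference of 1.10 ± 0.36 in SC cultures was not called (limma adjusted p = 0.167). Kif13a, Kif13b, Kif16b, Kif17 and Kifc3 had group means of 5.66 RPKM or less and were called in neither culture.

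Dynein-1 and dynactin form the motor of retrograde transport. Dync1i2, the intermediate chain that binds dynactin, was 18.5, 35.8 and 50.2 RPKM in OMN GFP-positive and 6.79, 12.1 and 13.4 in OMN GFP-negative samples. The groups did not overlap, and Dync1i2 rose by 1.55 ± 0.26 on the log2 scale (limma adjusted p = 0.000483). In SC cultures it was 14, 22.4 and 42.5 against 13.2, 17 and 21.1 RPKM, with a difference of 0.45 ± 0.26 that was not called. Its neuronal paralog Dync1i1 was at 1.79 RPKM or less in every sample, so that Dync1i2 held 97.6% or more of the intermediate chain RPKM in each group on average.

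The heavy chain Dync1h1, which carries the motor domain, was 53 ± 44.9 against 30.9 ± 24.4 RPKM in the OMN fractions and 24 ± 18.5 against 17.2 ± 17.4 in the SC fractions (SD, n = 6 each). It was not called with or without the block on the main scaling (limma adjusted p = 0.102 and 0.672 in OMN cultures). It was higher in 6 of 6 OMN pairs, by 0.09 to 1.11 on the log2 scale, and was called there with median-of-ratios scaling added to the block (limma adjusted p = 0.0471). Dync1li1, a light intermediate chain that binds cargo adaptors, was 94.3 ± 70.4 against 35.1 ± 15.8 RPKM in the OMN fractions. It was not called on all samples without the block (limma adjusted p = 0.32) and was called with it, at 1.20 ± 0.22 (limma adjusted p = 0.00273), while Dync1li2 was called in neither of these fits. All 5 dynein-1 genes had positive changes in both cultures, with medians of 0.76 in OMN and 0.64 in SC cultures. In OMN GFP-positive samples the mean of Dync1li1 was 50.8 RPKM in replicates 1 to 4 and 181 in replicates 5 and 6. That of Dync1h1 was 70.4 and 18 RPKM in the same sets. Why the sets differed was not tested.

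Of dynein-2, the motor of transport within cilia, Dync2h1 had group means of 1.83 to 2.61 RPKM. Dync2li1 was 10.5 ± 4.59 in OMN GFP-positive and 24.7 ± 13.8 RPKM in OMN GFP-negative samples (SD, n = 6 each). Its difference of -1.06 was not called on all samples without the block (limma adjusted p = 0.0885) and was called with it (limma adjusted p = 0.0209).

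Dctn1, the p150Glued subunit through which dynactin touches microtubules and dynein, was 13.1, 31.4 and 60.7 RPKM in OMN GFP-positive and 1.43, 6.58 and 8.47 in OMN GFP-negative samples. The groups did not overlap, and Dctn1 rose by 2.30 ± 0.57 on the log2 scale (limma adjusted p = 0.0156). In SC cultures it was 0.727, 11.6 and 29.6 against 1.72, 6.92 and 10.7 RPKM, higher in the GFP-positive sample of 4 of 6 pairs and not called. In the fit on all samples without block or sample weights the other dynactin subunits were called in neither culture, and all 6 subunits had positive changes in both cultures. The median dynactin change was 1.18 in OMN and 0.58 in SC cultures. With the replicate block Dctn2, Dctn4, Dctn5 and Dctn6 were also called in OMN cultures, with changes of 1.31, 1.05, 1.16 and 1.19 and limma adjusted p of 0.00205, 0.0026, 0.00393 and 0.024. The mean of Dctn4 in OMN GFP-positive samples was 54.8 RPKM in replicates 1 to 4 and 276 in replicates 5 and 6. Dctn3, at 205 ± 85.9 RPKM in OMN GFP-positive samples the most abundant motor gene there by mean, was called in neither fit.

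The mitotic kinesins had mostly negative changes from the GFP-negative to the GFP-positive fraction, and 1 of them passed the test on all samples. In OMN cultures 11 of 12 had negative changes and their median was -1.17, and in SC cultures 12 of 12 were negative with a median of -0.53. Kif15, a spindle motor that works beside Kif11, was 0.449, 2.02 and 4.5 RPKM in OMN GFP-positive and 4.57, 6.98 and 8.48 in OMN GFP-negative samples. The groups did not overlap, and Kif15 fell by 1.44 on the log2 scale (SE 0.41, limma adjusted p = 0.0376). The call of Kif15 was lost when any of 8 single OMN samples was left out (GFP-positive 4, 5 or 6, or GFP-negative 1, 2, 3, 5 or 6), with changes of -1.47 to -1.25 in those fits. With the replicate block 8 of the 12 mitotic kinesins were called lower in OMN cultures, where 8.21% of all genes were, namely Kif4, Kif11, Kif15, Kif18a, Kif20b, Kif22, Kif23 and Kif2c.

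Kif11, the motor that pushes spindle poles apart, was 1.04, 4.2 and 10.5 RPKM in OMN GFP-positive and 7.83, 13.1 and 19.2 in OMN GFP-negative samples, lower in 6 of 6 pairs. The groups overlapped through OMN GFP-positive replicates 1 and 2, at 10.5 and 9.41 RPKM, while replicates 4 to 6 were at 1.91, 1.04 and 1.44. The difference was -1.50 ± 0.53 (limma adjusted p = 0.0992), and -1.50 ± 0.25 with the replicate block (limma adjusted p = 0.00119). In SC cultures Kif11 was 2.46, 5.35 and 31.5 RPKM in GFP-positive and 3.95, 10.5 and 33.4 in GFP-negative samples. The highest value of both SC fractions was that of replicate 4, and the GFP-positive sample was lower in 6 of 6 pairs.

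Kif23, a motor of the central spindle in cytokinesis, was 0.456, 2.36 and 3.23 RPKM in OMN GFP-positive and 4.03, 5.55 and 7.24 in OMN GFP-negative samples. These did not overlap, and the difference of -1.24 ± 0.40 was not called on all samples without the block (limma adjusted p = 0.0684) and was called with it (limma adjusted p = 0.0185). In SC cultures Kif23 was 0.841, 3.55 and 12 against 5.53, 8.78 and 14.5 RPKM, lower in 6 of 6 pairs, with a difference of -1.11 ± 0.40 (limma adjusted p = 0.246). Without SC GFP-positive replicate 4 alone, Kif23 was called in SC cultures. It was not called there with the replicate block. Nor was it called without both samples of replicate 4, unless median-of-ratios scaling was added.

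Kif2c, which takes microtubules apart at centromeres, was 5.26 ± 4.98 against 12.5 ± 4.12 RPKM in the OMN fractions (SD, n = 6 each), and -1.50 ± 0.35 on the log2 scale with the replicate block (limma adjusted p = 0.0102). Kif4, a chromosome-bound motor, was 3.03 ± 2.9 against 7.88 ± 1.79 RPKM, with 15.1% of its exonic bases shared with a gene on the other strand. Kif20a, a cytokinesis motor, was 1.96 ± 3.05 against 3.11 ± 2.57 RPKM and was not called under the block. Of its exonic bases, 29.3% are shared with a gene on the other strand. Kif14, Kif18b and Kifc1 were not called with or without the block on the main scaling either. Kif14 was called lower with median-of-ratios scaling added to the block, with sample quality weights and in replicates 5 and 6 only. The level of Kifc1 is uncertain because it has a near-identical copy, Kifc5b, and the Kif18b means of 2.16 ± 1.56 and 2 ± 1.31 RPKM were level.

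**Figure D4:**
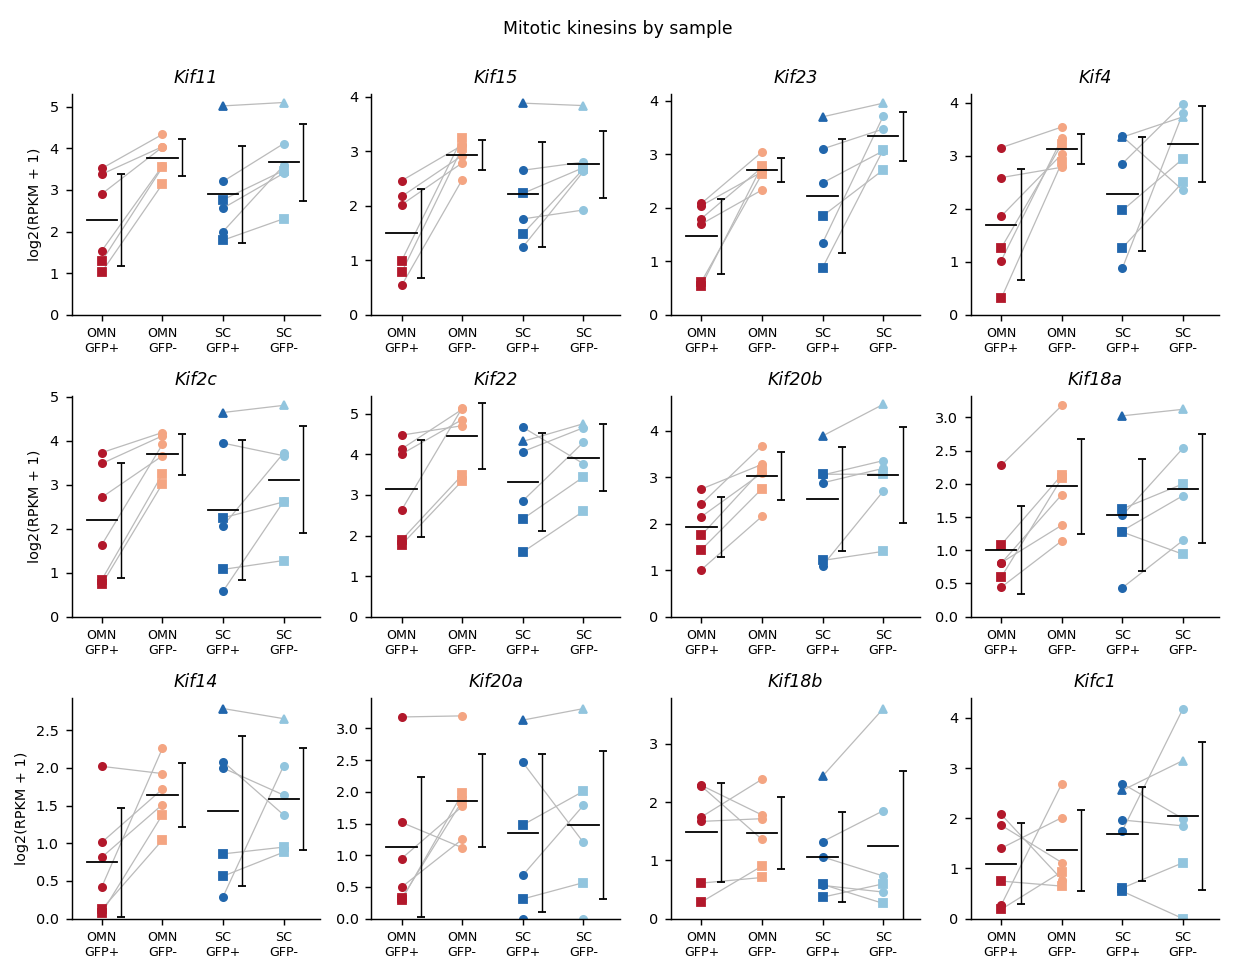
Level of the 12 mitotic kinesins in each sample as log2(RPKM + 1) (vertical axis) in the 4 groups, with symbols, pair lines, means and SDs (n = 6) as in the plot of transport genes. Kif15 and Kif23 do not overlap between the OMN fractions, replicates 5 and 6 (squares) are the lowest OMN GFP-positive samples for Kif11, Kif2c and Kif22, and replicate 4 of the SC cultures (triangles) is the highest of both SC fractions for Kif11, Kif15 and Kif2c.

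In OMN cultures markers of dividing and of pluripotent cells had negative changes beside those of the mitotic kinesins. The summed RPKM of the 12 mitotic kinesins was 10 to 75.8 in OMN GFP-positive and 62.6 to 117 in OMN GFP-negative samples, and that of 15 cycling-cell markers 130.1 to 786 and 393 to 1240. Of the 15 markers, all had negative changes in OMN cultures. Of these, 5 were called lower (Bub1, Ccnb1, Mcm5, Pcna and Top2a), where 2.34% of all genes were. The summed level of 6 pluripotency markers was 0.315 to 259 RPKM in OMN GFP-positive and 711 to 9863 in OMN GFP-negative samples, with Pou5f1 at 0 to 1.39 and 1.29 to 49.1 RPKM. In SC cultures all 15 cycling-cell markers had negative changes too, with a median of -0.69 and 0 called. There 5 of 6 pluripotency markers had positive changes instead, with a median of 0.51 and 0 called. Of all genes, 0.397% were called higher and 0.83% lower in SC cultures. SC replicate 4 had the highest summed mitotic kinesins of each SC fraction, 153 and 190.1 RPKM, with Pou5f1 at 31.5 and 50.3. The summed pluripotency markers of the SC GFP-positive samples were highest in replicate 5. They reached 12405.5 RPKM there, of which Dppa5a made up 12328.4, against 344 in its GFP-negative sample. The part of these cells in the levels of the mitotic kinesins was not tested.

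**Figure D5:**
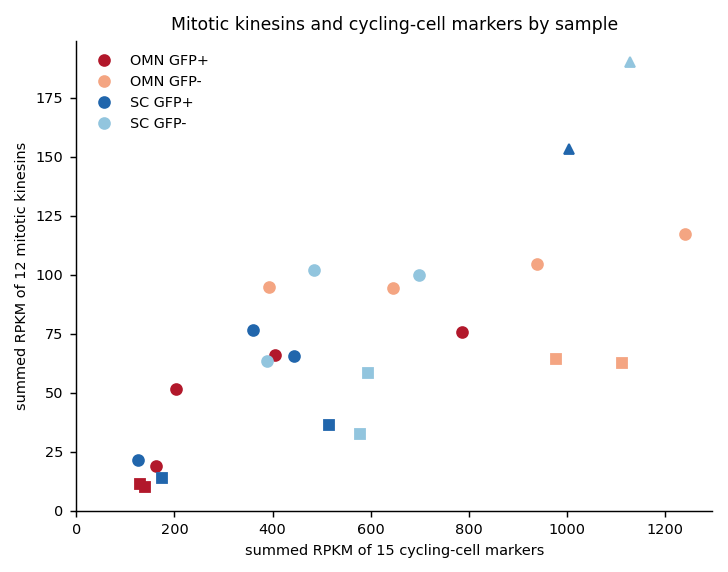
Summed RPKM of the 12 mitotic kinesins (vertical axis) against that of 15 cycling-cell markers (horizontal axis) in the 24 samples. Circles are replicates 1 to 4, squares replicates 5 and 6, and triangles SC replicate 4, which lies highest at 153 and 190.1 RPKM, while OMN GFP-positive replicates 4 to 6 lie at 10 to 18.9.

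The step of the transport genes ran beside that of the neuronal markers, of which Tubb3 was 285 to 848 RPKM in OMN GFP-positive and 2.43 to 19.8 in OMN GFP-negative samples. The part of neuron content in the levels of the transport genes was not tested.

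The other kinesins include motors of cilia, signalling and microtubule dynamics, and none was called on all samples without the block in either culture. Kif2a, a microtubule-dismantling motor that trims neurites, was 16.7 ± 9 against 10.3 ± 4.75 RPKM in the OMN fractions and 28.8 ± 21.4 against 17.2 ± 7.72 in the SC fractions (SD, n = 6 each). It was not called in OMN cultures without the block (limma adjusted p = 0.501) and was called with it (limma adjusted p = 0.0424), and 19.2% of its exonic bases are shared with a gene on the other strand. Kif7, a ciliary regulator of Hedgehog signalling, shares 20.3% of its exonic bases with genes on the other strand. It was 3.69 ± 1.84 against 5.09 ± 3.08 RPKM in the OMN fractions. Kif19a was 1.55 ± 2.27 against 0.072 ± 0.0677 RPKM there, without overlap, and higher in 6 of 6 pairs. Its difference of 0.93 ± 0.33 was not called without the block (limma adjusted p = 0.107) and was called with it (SE 0.30, limma adjusted p = 0.0489). The call with the block was lost without both samples of SC replicate 4. Kif6, Kif9, Kif12, Kif24, Kif26a, Kif26b and Kif27 had group means of 4.59 RPKM or less, and Kif12 was 0 in every GFP-positive sample.

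In all, 9 of 56 motor genes lay higher in every OMN GFP-positive than in every OMN GFP-negative sample, where 4.04% of all genes did, and 2 lay lower, where 2.48% did. In SC cultures 0 genes were separated in either direction, where 0.0721% and 0.397% of all genes were.

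In SC cultures 1 of 56 motor genes, Kif5a, was called higher and 0 lower, where 1.23% of all genes were called (0.397% higher and 0.830% lower), and 12 had an unadjusted limma p under 0.05, where 10.4% of all genes did. With the replicate block 3 were called, Kif5a, Kif5c and Klc1, where 2.93% of all genes were. Without both samples of replicate 4 there were 5 (Kif1a, Kif1b, Kif5a, Kif5c and Klc1), where 2.90% of all genes were called, and with the block added 7, where 5.67% were. Of those 5, Kif1a and Klc1 were no longer called when SC GFP-negative replicate 2 was left out as well, in the fit without the block. The call of Kif5a on all samples was lost when any of 7 single SC samples was left out, with changes of 1.71 to 2.06 in those fits.

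Whether the step between fractions differed between the cultures was tested as an interaction. On all samples 0 of 56 motor genes were called, where 0.320% of all genes were (0.262% with a larger step in OMN cultures and 0.0586% with a smaller one), and 6 had an unadjusted limma p under 0.05, where 7.13% did. With the replicate block 2 were called, where 2.04% of all genes were, and without both samples of SC replicate 4 the block also gave 2, where 2.29% of all genes were called. Dync1i2 rose more in OMN cultures, by 1.10 ± 0.23 on the log2 scale (limma adjusted p = 0.0309 with the block, 0.341 without it).

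Kifc2, a minus-end motor of dendrites and axons, differed most between the cultures. It was 0.598, 0.957 and 5.35 RPKM in OMN GFP-positive and 0.462, 7.06 and 11.8 in OMN GFP-negative samples, lower in 5 of 6 pairs. In SC cultures it was 1.76, 3.87 and 8.82 in GFP-positive and 0.188, 0.969 and 6.96 in GFP-negative samples, higher in 6 of 6 pairs. The difference of the steps was -2.34 ± 0.55 with the block (limma adjusted p = 0.0461) and had a limma adjusted p of 0.336 without it. It was -2.96 in replicates 1 to 4 and -1.10 in replicates 5 and 6, where OMN GFP-negative samples were at 0.462 and 1.33 RPKM.

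OMN and SC GFP-positive samples were compared to ask which motors distinguish the resistant from the vulnerable type of motor neuron. Of 55 motor genes tested, 0 were called, where 0.603% of all genes were, and 9 had an unadjusted limma p under 0.05, where 10.1% did. In 0 of them did the samples of 1 culture all lie above those of the other, where 0.733% of all genes were higher and 0.696% lower in all OMN samples. The largest such differences were 1.55 ± 0.63 for Dctn1 and 1.45 ± 0.47 for Klc1, both higher in OMN (limma adjusted p = 0.41 and 0.251). The differences were 0.68 for Kif5a (95% interval -0.58 to 1.94), 0.53 for Kif5c (-0.68 to 1.75) and -0.61 for Kif11 (-1.92 to 0.70), intervals that span changes of more than 1 on the log2 scale. Without SC GFP-positive replicate 4 again 0 motor genes were called, where 0.633% of all genes were, and the differences were 0.16 ± 0.40 for Kif5a, -0.0049 ± 0.35 for Kif5c and -0.19 ± 0.53 for Kif11. Those of Dctn1 and Klc1 were then 1.60 ± 0.68 and 1.10 ± 0.38 (limma adjusted p = 0.435 and 0.312).

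Between the GFP-negative fractions 0 of 56 motor genes were called, where 0.960% of all genes were, and 4 had an unadjusted limma p under 0.05, where 11.3% did. The groups overlapped for all 56, where 0.397% of all genes were higher and 0.870% lower in all OMN samples. Kif1b, at 4.64 ± 1.09 RPKM in OMN and 9.45 ± 4.65 in SC GFP-negative samples (SD, n = 6 each), was lower in OMN by -0.80 ± 0.31 (limma adjusted p = 0.291). Without both samples of SC replicate 4 it was the 1 gene called, at -0.93 (limma adjusted p = 0.0376), where 2.67% of all genes were.

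The partners of these motors were given as counts. Of 25 dynein light chains, dynactin filament proteins, regulators and adaptors, 3 were higher in the GFP-positive fraction of OMN cultures and 0 lower, where 3.81% of all genes were higher and 2.34% lower. These were Actr1a, which builds the dynactin filament (1.48 ± 0.38, limma adjusted p = 0.0199), and the cargo adaptors Bicd1 (1.14 ± 0.23) and Bicd2 (1.91 ± 0.47). Of 15 kinesin adaptors and regulators measured, 3 were higher and 0 lower against the same 3.81% and 2.34%, namely Arl8a (1.90 ± 0.44), which recruits kinesin to lysosomes, Kidins220 (2.09 ± 0.51) and Mapk8ip2 (2.05 ± 0.49). In SC cultures 0 of either list were called, where 0.397% of all genes were higher and 0.830% lower.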

How the data were processed

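Poly(A) RNA of 24 sorted bulk samples (4 groups of 6) was sequenced from SMART-seq2 libraries without molecular identifiers. Per the labels, reads were mapped to mm10 with HISAT2 2.0.3, and DESeq2 1.12.4 was also named. The authors deposited RPKM per gene, computed with rpkmforgenes; the gene annotation and strand handling were not given in the sources used here. Depth was estimated from the steps of low RPKM values at single-transcript genes, where 95.9% to 97.9% of values were within 2% of whole reads, and it limits low genes.

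RPKM are not counts, so limma 3.58.1 (R 4.3.3, trend) was fitted to log2(RPKM + 1) for genes above 0 in at least 2 samples, with Benjamini-Hochberg adjustment over all genes tested and a threshold of 0.05. OMN and SC GFP-positive samples were fitted alone (12 samples), the other comparisons in 1 fit of 24. No label says that replicates were separate cultures, so p-values measure only the spread between these samples. Same-numbered fractions of a culture deviated together (correlations of 0.379 to 0.728 in OMN and 0.421 to 0.661 in SC cultures, 11952 genes). The number was therefore taken to pair them, and the fits with the replicate block rest on this. Correlations between fractions of different number were not computed, and no label states the pairing. Fits with the replicate block are given where they change a call. Exon overlaps came from GENCODE M21 and promoters from RefSeq.

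The members and gene lists were chosen with earlier results of these data known. Full values were given for genes called between cultures or in the interaction, for the 3 largest called changes per class and for a set list of members. Alternatives changed the pseudocount, filter, scaling, block, weights, replicate sets and samples. Scripts were tested on simulated data.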

Additional observations from a re-analysis of the deposited data

Results flagged for a closer look

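Of 108 groups of 6 samples tested for a sample far from the rest (27 motor genes), 5 had one, and chance alone flags about 1 in 20 groups. SC GFP-positive replicate 4 stood below the other samples of its group for Dctn3 (42.99 RPKM against 135 to 181) and Kif1b (5.19 RPKM against 17.1 to 26.3). OMN GFP-negative replicate 1 had Dync1i1 at 0.386 RPKM, where the others were at 0 to 0.0656. OMN GFP-positive replicate 1 had Kif5c at 26.5 RPKM, where the others were at 45.8 to 63.1. OMN GFP-negative replicate 4 had Klc1 at 46.3 RPKM, where the others were at 20.6 to 25.5.

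By the interaction term with the replicate block 2 of 56 motor genes were called, where 2.04% of all genes were. Without the block 0 were called, where 0.320% of all genes were. With the block the step from the GFP-negative to the GFP-positive fraction was larger in OMN cultures by 1.10 on the log2 scale for Dync1i2. For Kifc2 the difference of the steps was -2.34.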

How the results depend on the processing

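Counts are motor genes called by limma. The share of all genes called moved with the setting too, so a count alone does not describe the motor genes. From all samples to the replicate block within each culture it went from 6.15% to 16.4% in OMN fractions. In the same way it went from 1.23% to 2.93% in SC fractions and from 0.320% to 2.04% in the interaction. In OMN fractions 9 were called on all samples. There were 21 with the replicate number as block and 26 with the replicate block within each culture, 25 with sample quality weights, 4 in replicates 1 to 4 only, 15 without SC replicate 4 and SC GFP-negative replicate 2, 15 with OMN samples alone, and 7 to 12 when single samples were left out. In SC fractions 1 was called on all samples. There were 0 with a pseudocount of 0.1, in replicates 1 to 4 or with SC samples alone, 2 with quality weights, 3 without the libraries in doubt or with the replicate block within each culture, and 0 to 6 when single samples were left out. The highest was without SC GFP-positive replicate 4, and Kif5a was lost without SC GFP-positive replicate 1, 3, 5 or 6 or SC GFP-negative replicate 1, 2 or 6. The interaction gave 0 genes, and 2 with the replicate block within each culture. Between GFP-negative fractions 1 was called with quality weights and without the libraries in doubt, against 0. The 9 OMN calls and the 1 SC call made on all samples without a block were also made with the replicate block within each culture.

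The other settings were chosen after seeing the data. Without both samples of SC replicate 4 there were 5 genes in SC fractions and 1 between GFP-negative fractions, where 2.90% and 2.67% of all genes were called. Adding the block gave 24 in OMN fractions, 7 in SC fractions and 2 in the interaction, where 16.8%, 5.67% and 2.29% of all genes were called. Adding median-of-ratios scaling instead gave 14, 6 and 0, with 1 between GFP-negative fractions. Median-of-ratios scaling with the block on all samples gave 28, 3 and 3. No called gene changed direction under any setting. Why counts differed was not tested. Depth limits genes near 0 RPKM.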
